A study of Mus musculus with 4 samples.

Results

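The p53 response genes described here are 10 genes, the transcription factor Trp53 and 9 of its well known targets, chosen by name, out of 55487 genes listed in the deposited tables. They were measured by RNA-seq in mouse small intestinal (SI) organoids, which are epithelial cultures grown from isolated crypts. The control group (replicates 1 and 2) carried a lentivirus with a miRNA mimic control. The mimic group (replicates 3 and 4) carried a lentivirus that expressed miR-181a-5p mimic. These replicate numbers were read from the last digit of the sample titles. Both groups were kept in puromycin at 2 µg/ml to retain transduced cells, so infection and drug selection are common to all 4 libraries. The strain, age and number of mice behind the cultures, and whether the replicates came from separate transductions, were not given for these libraries, so p-values measure the spread between these samples, which may be technical.

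The protein p53 is held at a low level in unstressed cells because the ubiquitin ligase MDM2 marks it for degradation, and MDM2 is itself encoded by a p53 target, which closes a feedback loop. Stabilised p53 binds DNA as a tetramer and switches on genes that stop the cell cycle, start apoptosis, repair DNA or restrain growth. In the intestine this response is best known from crypt cells after irradiation. Much of p53 regulation acts on the protein, so the mRNA level of Trp53 does not report its activity.

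The sequences in this paragraph show the mimic's seed and where it could pair with members. The RefSeq sequence of mature miR-181a-5p (GRCm38.p6) is encoded by Mir181a-1 at chr1:137966468-137966490 on the + strand and by Mir181a-2 at chr2:38852741-38852763 on the + strand. Capitals mark the seed (bases 2 to 8) and, in the 3' UTR sites of GRCm38 transcripts, the bases that match it or the A opposite base 1.
miR-181a-5p: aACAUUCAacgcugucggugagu
Ccng1, 8mer at chr11:40748859-40748880, - strand: tgctggctTGAATGTAtgatcc
Cdkn1a, 7mer-A1 at chr17:29100173-29100194, + strand: actggaaggGAATGTAtatgca
Eda2r, 7mer-m8 at chrX:97336764-97336785, - strand: ttgtttctTGAATGTctttgca
Trp53inp1, 6mer at chr4:11172737-11172758, + strand: agcattttaGAATGTgtattct

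The shortest match searched was GAATGT, which pairs with bases 2 to 7 of the miRNA. Longer classes add T before it (7mer-m8), A after it (7mer-A1) or both (8mer), and only the mRNA strand was searched. At least 1 match of 6 bases or more lay in the 3' UTR of 5 of the 10 members (Ccng1, Cdkn1a, Eda2r, Trp53inp1 and Pmaip1), beside 33.3% of 20661 genes with an annotated 3' UTR. A 7mer-m8 or 8mer lay in 3 of the 10 (Ccng1, Eda2r and Pmaip1), beside 16.7% of those genes, and Ccng1 had the 1 8mer, a class that 5.37% of the genes held. For each gene only the longest annotated 3' UTR of its protein-coding transcripts was searched, from 224 bases in Bax to 4420 bases in Trp53inp1. Whether the organoids expressed those transcripts was not tested. Pmaip1 held a 7mer-m8 whose GAATGT began at base 425 of a UTR of 2192 bases. Trp53inp1 held another 6mer, not printed above, at base 1 of its UTR. A match is a description of letters and not a measured target site.

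The next sequences show the p53 decamer, the 10-base unit that p53 dimers bind, in the RefSeq promoter windows of members (GRCm38.p6, 250 bases before to 50 after each annotated start). The decamer reads the same on both strands, and capitals mark each exact match. Near matches were not searched for and stay in lower case.
Trp53, chr11:69580274-69580303, + strand: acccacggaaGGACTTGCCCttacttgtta
Mdm2, chr10:117710925-117710954, - strand: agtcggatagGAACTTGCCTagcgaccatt
Ccng1, chr11:40755452-40755481, - strand: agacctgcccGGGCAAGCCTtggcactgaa
Cdkn1a, chr17:29090896-29090947, + strand: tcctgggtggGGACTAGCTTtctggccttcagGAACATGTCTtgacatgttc
Bax, chr7:45467080-45467109, - strand: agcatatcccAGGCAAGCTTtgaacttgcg

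A decamer was found in 5 of the 8 members that had a window, beside 9.55% of 27025 genes with a window. A pair of exact decamers at most 13 bases apart, the arrangement a p53 tetramer can span, was found in 1 of these 8. This was Cdkn1a, with 12 bases between the matches, and 0.0740% of the genes held such a pair. The bases right after the later Cdkn1a match also come close to the decamer but were not counted. Bbc3, Sesn2 and Eda2r had none of these letters in their windows, and the sequence table held no window for Pmaip1 or Trp53inp1. The windows leave out introns and distant sites, so a window with no match says nothing about p53 binding elsewhere.

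Library totals ranged from 31104884 to 38111731 expected counts. Of 14 epithelial markers all 14 passed the filter on low counts, and their summed level was 3292 to 3883 TPM (a level scaled for transcript length and library depth). Of 16 markers of immune, endothelial, mesenchymal, muscle and neural cells 4 passed it, and the summed level of all 16 was 1.56 to 2.34 TPM in control libraries and 1.46 to 1.71 TPM in mimic libraries, with Cdh5, Col1a2 and Col3a1 at 0 in every library. The share of mitochondrial counts was 4.30% and 4.55% with the mimic control, against 3.46% and 3.43% in the mimic libraries. None of the 4 libraries was a copy of another.

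All 10 members passed the filter and were among the 17155 genes tested. Their levels per length spanned from abundant to scarce. Ccng1 (mean of 4 libraries 71.2 TPM), Trp53 (69.9 TPM) and Cdkn1a (66.9 TPM) stood at the top, above 90% of tested genes. Bax followed at 47.0 TPM, then Mdm2 at 25.6 TPM, Pmaip1 at 21.4 TPM, Trp53inp1 at 10.4 TPM and Sesn2 at 9.71 TPM. Eda2r (3.34 TPM) and Bbc3 (2.49 TPM) came last. The ranges over the 4 libraries overlapped between Ccng1 and Trp53, Trp53 and Cdkn1a, Cdkn1a and Bax, Mdm2 and Pmaip1, and Trp53inp1 and Sesn2. Within libraries, Cdkn1a was above Bax in all 4. Pmaip1 was above Mdm2 in both controls (means 29.6 and 23.7 TPM) and below it in both mimic libraries (13.2 and 27.5 TPM). Ccng1 was above Trp53 in both controls (means 70.9 and 60.6 TPM) and below it in both mimic libraries (71.4 and 79.2 TPM). The order within both pairs thus differed between the groups. Summed over the 10 members the level was 303 and 330 TPM for the controls against 323 and 356 TPM for the mimic, and these ranges overlapped.

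**Figure D1:**
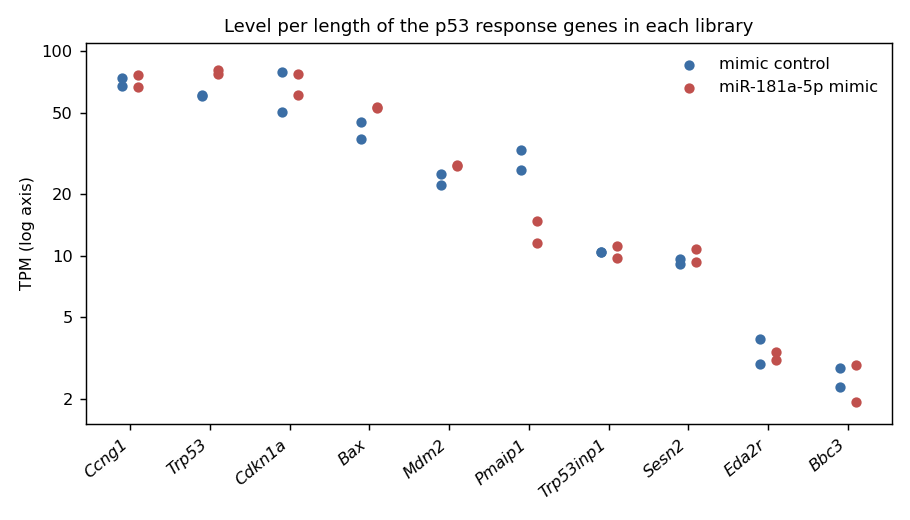
Level per length (TPM, log axis) of each member in the 2 control libraries (blue) and the 2 miR-181a-5p mimic libraries (red), ordered by the mean over all 4. Ccng1, Trp53 and Cdkn1a have mean levels of 66.9 to 71.2 TPM, Bbc3 is lowest at 2.49 TPM, and Pmaip1 is the member whose groups lie farthest apart.

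With the mimic, the difference passed the test in 1 of the 10 members: Pmaip1, which encodes the pro-apoptotic protein NOXA, fell 2.29-fold. The other 9 did not pass an adjusted p of 0.05 (edgeR's quasi-likelihood test, Benjamini-Hochberg adjusted over 17155 genes), among them Cdkn1a, Mdm2 and Ccng1, the targets most used as readouts of p53 activity. No member was called higher, beside 1.28% of all genes tested, and 1 was called lower, beside 2.29%, so 1 of 10 was called in either direction beside 3.57%. With a fold of at least 2 added the count was again 1 of 10, beside 2.06% of genes. The fold changes were positive in 6 members and negative in 4 (with upper-quartile factors Cdkn1a, Trp53inp1 and Sesn2 turned negative), with a median log2 fold change of 0.02 beside -0.01 over all genes. At an unadjusted p under 0.05 there were 3 members (Trp53, Bax and Pmaip1), beside 24.8% of genes. Both mimic libraries lay above both controls in 3 members (Trp53, Mdm2 and Bax), beside 28.9% of genes, and below them in 1 (Pmaip1), beside 29.5%. Those 3 higher members are thus a share close to that of all genes.

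**Figure D2:**
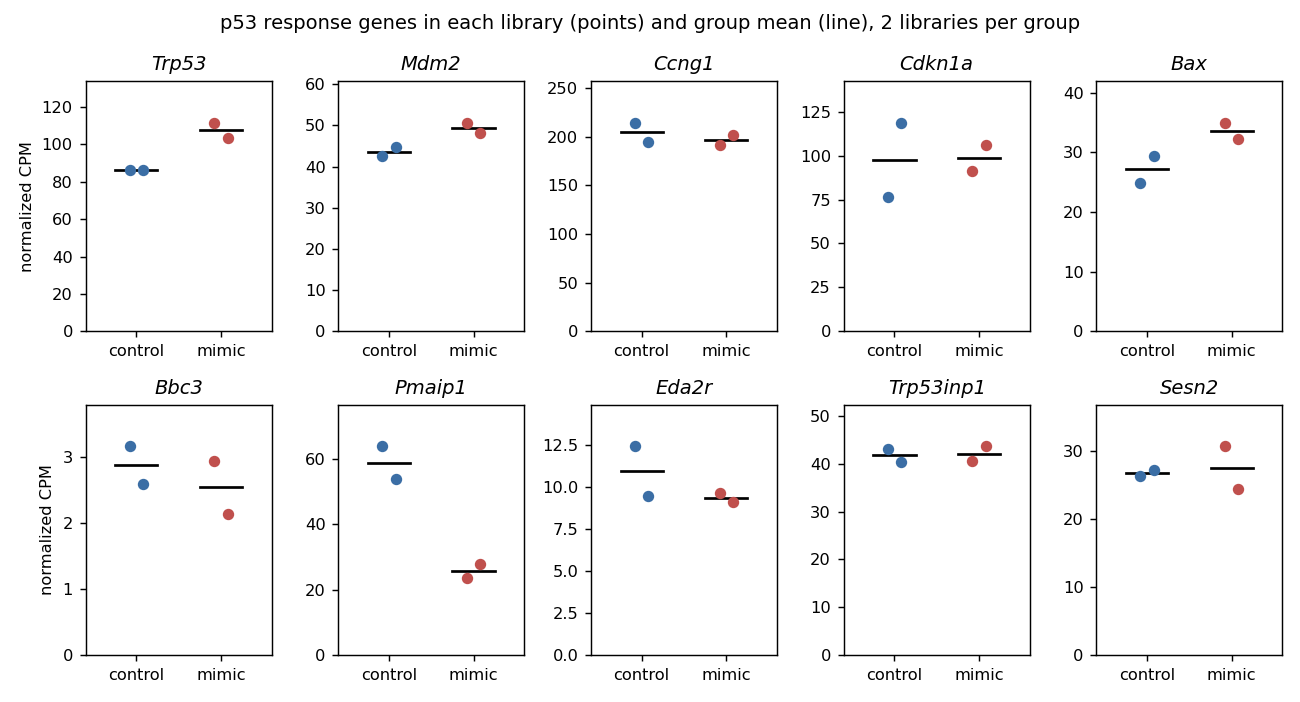
Normalized CPM (counts relative to library size with TMM factors, axes from 0) of each member in the 2 control (blue) and 2 mimic (red) libraries, with the group mean as a line. The groups are widely apart for Pmaip1 (53.7 and 63.8 against 23.4 and 27.8 normalized CPM) and less so for Trp53 (86.3 and 86.2 against 112 and 104). They are narrowly apart for Mdm2 and Bax and overlap for the other 6.

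Trp53 itself (chr11:69580359-69591873, + strand) had control values of 86.3 and 86.2 normalized CPM against 112 and 104 in the mimic libraries. Both mimic libraries were higher and the controls were almost equal. The log2 fold change was 0.32 (SE 0.09, 95% interval 0.10 to 0.54), a 1.25-fold difference, with an unadjusted p of 0.0102 and an edgeR adjusted p of 0.0994. It was positive in all 16 alternative analyses, from 0.27 to 0.39, and passed the threshold in none.

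The feedback genes did not pass the test. Mdm2 (chr10:117688875-117710758, - strand) had 42.5 and 44.8 normalized CPM in control libraries and 50.6 and 48.2 in mimic libraries. The groups were apart by less than 4 normalized CPM at their nearest libraries, and the log2 fold change was 0.18 (SE 0.10, 95% interval -0.05 to 0.41, edgeR adjusted p = 0.307). Ccng1 (chr11:40748552-40755311, - strand), which encodes cyclin G1, a partner of a phosphatase that acts on MDM2, had 214 and 194 normalized CPM with the mimic control against 192 and 201 in mimic libraries. The groups overlapped, with a log2 fold change of -0.06 (SE 0.10, 95% interval -0.28 to 0.17, edgeR adjusted p = 0.762). Ccng1 is the member with the 8mer printed above.

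Cdkn1a (chr17:29090976-29100727, + strand) encodes p21, the inhibitor of cyclin-dependent kinases through which p53 stops the cell cycle. It had control values of 76.2 and 119 normalized CPM against 91.5 and 106 in the mimic libraries. Both mimic libraries lay between the controls, which differed 1.56-fold from each other. The log2 fold change was 0.02 (SE 0.19, 95% interval -0.44 to 0.47, edgeR adjusted p = 0.962). The direction hung on single libraries: without control replicate 1 the log2 fold change was -0.27 and without control replicate 2 it was 0.38, neither past the threshold. Control replicate 1 also had the lower level of Krt20, a marker of differentiated cells at the villus tip, with 49.2 normalized CPM against 92.7 in control replicate 2 and 77.6 and 75.6 with the mimic. Its part in the Cdkn1a values was not tested.

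Of the 3 apoptosis genes 1 was called. Pmaip1 (chr18:66458533-66465565, + strand) encodes NOXA, a BH3-only protein that binds MCL1 and frees the effectors of mitochondrial cell death. It had 63.8 and 53.7 normalized CPM in control libraries and 23.4 and 27.8 in mimic libraries, from 2445 and 1664 against 733 and 990 expected counts. Every control library was well above every mimic library. The log2 fold change was -1.20 (SE 0.14, 95% interval -1.51 to -0.88, edgeR adjusted p = 0.00885), and its p ranked 60 among 17155 genes. The interval of the ratio of mimic to control ran from 0.350 to 0.543, which includes a 2-fold decrease. In 16 alternative analyses the log2 fold change stayed between -1.32 and -1.07 with adjusted p from 1.25e-11 to 0.314. It passed the threshold in 13 of them, including without any 1 library. The 3 in which it did not pass were limma fits on TPM, with adjusted p of 0.0754, 0.0815 and 0.314.

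Lgr5, the receptor that marks crypt stem cells, also fell with the mimic, from 401 and 312 to 98.0 and 176 normalized CPM (log2 fold change -1.38, SE 0.26, edgeR adjusted p = 0.0369). Cdx1, an intestinal transcription factor, rose from 97.4 and 89.7 to 134 and 125 normalized CPM (log2 fold change 0.47, edgeR adjusted p = 0.0477). The other 12 epithelial markers were not called, and the share called over all genes was 3.57%. Among the 12, Olfm4, also a marker of intestinal stem cells, had 570 and 227 normalized CPM with the mimic control. It had 400 and 531 in mimic libraries (log2 fold change 0.22, SE 0.36, edgeR adjusted p = 0.742). The count of called markers, 2 of 14, was 0 in the fits on TPM, which called 75, 27 and 2 genes over all against 612 in the main fit. Leaving out 1 library also changed the count of called markers, along with the count over all genes. In these bulk libraries fewer cells of a type and less RNA per cell cannot be told apart, and the part of cell composition or of the lower mitochondrial share in the Pmaip1 values was not tested.

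Bax (chr7:45461697-45466898, - strand), the pore-forming effector of mitochondrial apoptosis, had 24.9 and 29.4 normalized CPM with the mimic control against 35.0 and 32.2 in mimic libraries. The mimic libraries were higher by less than 3 normalized CPM at the nearest pair. The log2 fold change was 0.31 (SE 0.13, 95% interval 0.01 to 0.60, unadjusted p = 0.0427, edgeR adjusted p = 0.187). Bbc3 (chr7:16308393-16318205, + strand), which encodes the BH3-only protein PUMA, was the least abundant member, with control values of 3.16 and 2.58 normalized CPM against 2.94 and 2.13 in the mimic libraries, or 76 to 121 counts a library. The groups overlapped, and the log2 fold change of -0.19 had an interval of -0.81 to 0.43 (SE 0.27, edgeR adjusted p = 0.696), the widest of the 10.

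Eda2r (chrX:97333840-97377216, - strand), the receptor for the A2 form of ectodysplasin, had 12.4 and 9.45 normalized CPM in control libraries and 9.64 and 9.10 in mimic libraries. The groups overlapped (log2 fold change -0.23, SE 0.18, 95% interval -0.65 to 0.19, edgeR adjusted p = 0.465). The log2 fold change was -0.02 without control replicate 1 and -0.40 without control replicate 2, neither past the threshold. Eda2r carries the 7mer-m8 printed above.

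Among the stress adaptation genes, Trp53inp1 (chr4:11156431-11174379, + strand), whose product promotes p53 phosphorylation and autophagy, had 43.2 and 40.3 normalized CPM with the mimic control against 40.6 and 43.7 in mimic libraries. The groups interleaved, with a log2 fold change of 0.01 (SE 0.11, 95% interval -0.23 to 0.26, edgeR adjusted p = 0.959). Sesn2 (chr4:132492032-132510501, - strand), a sestrin that senses leucine and restrains mTORC1, had control values of 26.3 and 27.1 normalized CPM against 30.7 and 24.3 in the mimic libraries. The mimic libraries lay on either side of the controls (log2 fold change 0.04, SE 0.14, 95% interval -0.28 to 0.36, edgeR adjusted p = 0.881).

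Of the 5 members with a seed match, Pmaip1 fell and Ccng1, Cdkn1a, Eda2r and Trp53inp1 were not called. The 95% intervals of all 4 of these uncalled members lie inside a 2-fold change in either direction. Of the 5 members with a p53 decamer in the window (Trp53, Mdm2, Ccng1, Cdkn1a and Bax) none was called, with log2 fold changes from -0.06 to 0.32.

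**Figure D3:**
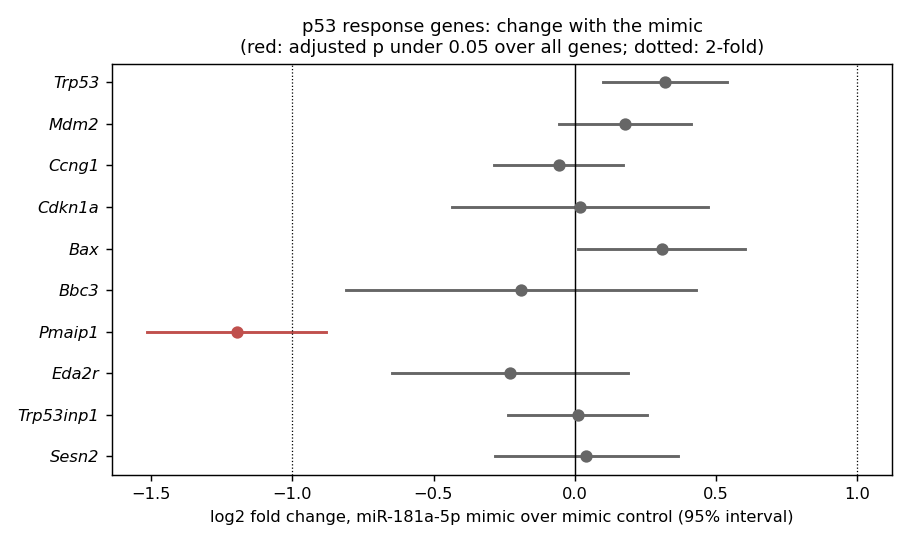
Log2 fold change of each member (mimic over control, points) with its 95% interval from edgeR (bars), with the called member in red and dotted lines at a 2-fold change. Pmaip1 lies at -1.20 with an interval of -1.51 to -0.88, and the other 9 points lie between -0.23 and 0.32.

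The counts of some members rest on the authors' assignment of reads that several genes or transcripts share. Trp53 and Cdkn1a had fractional counts in every library, Bax in 2 and Mdm2 in 1, and the other 6 members had whole counts in all 4. On GRCm38, Cdkn1a overlaps AC167363.2 on the other strand (at most 139 expected counts in a library), Bax overlaps Gm45808 (at most 4.04) and Sesn2 overlaps Gm12981 (at most 18), the last 2 on the same strand as the member. Whether counting used strand was not stated, so reads of Cdkn1a and AC167363.2 cannot be told apart where they overlap.

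Around the members, lists of the wider p53 network were counted in the same fit. Of 18 tested regulators of p53 none passed the test, beside 3.57% of all genes. There were 11 log2 fold changes above 0 and 7 below, with a median of 0.05. Mdm4, the partner of MDM2 that masks the activation domain of p53, had 182 and 165 normalized CPM in control libraries and 148 and 143 in mimic libraries (log2 fold change -0.26, SE 0.10, edgeR adjusted p = 0.158). Atm, the kinase that signals DNA double-strand breaks to p53, had a log2 fold change of 0.05 (adjusted p = 0.787) that turned negative without mimic replicate 3. At an unadjusted p under 0.05 there were 3 of the 18, beside 24.8% of all genes.

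Of 35 other p53 targets tested, 1 fell, beside 2.29% of all genes, and none rose, beside 1.28%. There were 13 log2 fold changes above 0 and 22 below, with a median of -0.11. The 1 called gene was Epha2, a receptor tyrosine kinase, which had 39.0 and 38.4 normalized CPM with the mimic control against 18.2 and 23.6 in mimic libraries (log2 fold change -0.89, SE 0.14, edgeR adjusted p = 0.0251). Without mimic replicate 3 its log2 fold change was -0.71 and did not pass. Gadd45a, which encodes a growth arrest and DNA damage protein, had control values of 25.9 and 31.7 normalized CPM against 15.8 and 19.0 in the mimic libraries. Its log2 fold change of -0.72 (SE 0.15) lay just outside the call, with an edgeR adjusted p that exceeds 0.05 by less than rounding shows, and passed in 8 of 16 alternatives.

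Other targets of the list that are named whatever their values were not called. Zmat3 had a log2 fold change of -0.18 (adjusted p = 0.284), Phlda3 -0.36 (adjusted p = 0.363) and Sesn1 -0.22 (adjusted p = 0.274). Plk2 had 0.13 (adjusted p = 0.573), Perp 0.23 (adjusted p = 0.225), Aen 0.30 (adjusted p = 0.140), Btg2 0.10 (adjusted p = 0.626) and Gdf15 0.09 (adjusted p = 0.835), all from edgeR's test. The signs of Btg2 and Gdf15 turned when single libraries were left out, and Phlda3 was -0.03 without control replicate 1 and -0.62 without control replicate 2. At an unadjusted p under 0.05 there were 11 of the 35, 3 higher and 8 lower, beside 24.8% of all genes.

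The BCL2 family and caspase list is the machinery on which NOXA, PUMA and BAX act. It had no call among 17 tested genes, beside 3.57% of all genes. Mcl1, the survival protein that NOXA binds, had 132 and 129 normalized CPM in control libraries and 152 and 137 in mimic libraries (log2 fold change 0.15, SE 0.10, edgeR adjusted p = 0.383). Bcl2l1, which encodes the survival protein BCL-XL, had 53.9 and 41.1 normalized CPM with the mimic control against 31.9 and 31.4 in mimic libraries (log2 fold change -0.59, SE 0.14, adjusted p = 0.0678). Bcl2l1 passed in 3 of 16 alternatives, DESeq2, edgeR's exact test and without control replicate 2 (-0.76), and was -0.39 without control replicate 1. Those 3 settings also called more genes over all than the main fit, with 1330 for DESeq2 and 1788 for the exact test against 612. Bcl2 (-0.08, adjusted p = 0.762) and the BH3-only gene Bcl2l11 (0.10, adjusted p = 0.664) had small log2 fold changes whose signs turned in some alternatives. At an unadjusted p under 0.05 there were 5 genes of the 17, 3 higher and 2 lower, beside 24.8% of all genes.

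Of 25 cell cycle genes linked to p21, 1 rose, beside 1.28% of all genes, and none fell, beside 2.29%. There were 20 log2 fold changes above 0, with a median of 0.21. The called gene was Ccne2, a cyclin E that drives entry into S phase with CDK2, a kinase that p21 inhibits. It had control values of 12.8 and 15.5 normalized CPM against 27.8 and 23.3 in the mimic libraries (log2 fold change 0.85, SE 0.15, edgeR adjusted p = 0.0340). Without control replicate 1 its log2 fold change was 0.71 and without mimic replicate 3 it was 0.72, neither past the threshold. Ccne1, the other cyclin E, had 4.43 and 8.16 normalized CPM in control libraries and 15.2 and 11.9 in mimic libraries (log2 fold change 1.11, SE 0.28, adjusted p = 0.0744). It passed in 4 of 16 alternatives. Its log2 fold change was 0.72 without control replicate 1, 1.61 without control replicate 2 and 1.28 without mimic replicate 4. The last 2 were past the threshold, in settings that also called more genes over all than the main fit. Ccnd1, which encodes cyclin D1, had 54.6 and 54.4 normalized CPM with the mimic control against 71.7 and 77.7 in mimic libraries (log2 fold change 0.46, adjusted p = 0.0514). Ccnd1 passed in 4 of 16 alternatives, 1 of them without control replicate 2 (0.46), where more genes were called over all. The replication clamp gene Pcna (0.14, adjusted p = 0.409) and Cdkn1b, which encodes the inhibitor p27 (-0.09, adjusted p = 0.678, positive without control replicate 1), were not called. Unadjusted p was under 0.05 in 12 of the 25, 10 higher and 2 lower, beside 24.8% of all genes.

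Of 16 sestrin and mTORC1 genes 1 rose, beside 1.28% of all genes, and none fell, beside 2.29%. There were 6 log2 fold changes above 0 and 10 below, with a median of -0.03. Unadjusted p was under 0.05 in 3 of the 16, 2 higher and 1 lower, beside 24.8% of all genes. The called gene was Sesn3, a sestrin best known as a FOXO target. It rose from 64.2 and 56.4 to 89.7 and 94.1 normalized CPM (log2 fold change 0.61, SE 0.11, edgeR adjusted p = 0.0311). Without mimic replicate 4 its log2 fold change was 0.58 and did not pass. The 3 sestrins thus had log2 fold changes of -0.22 (Sesn1), 0.04 (Sesn2) and 0.61 (Sesn3).

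ATF4 is a stress transcription factor that can also switch on Pmaip1, Bbc3 and Sesn2, so its pathway was counted too. Of 16 genes 2 fell, beside 2.29% of all genes, and none rose, beside 1.28%. There were 8 log2 fold changes on each side of 0. Unadjusted p was under 0.05 in 7 of the 16, 4 higher and 3 lower, beside 24.8% of all genes. Nupr1, a small stress-induced chromatin protein, had control values of 84.0 and 108 normalized CPM against 35.5 and 38.3 in the mimic libraries (log2 fold change -1.38, SE 0.14, edgeR adjusted p = 0.00600). Ppp1r15a, which encodes GADD34, a phosphatase subunit that restores translation, had 17.1 and 23.4 normalized CPM in control libraries and 10.8 and 11.7 in mimic libraries (log2 fold change -0.85, SE 0.18, adjusted p = 0.0474). Without mimic replicate 3 the log2 fold change of Ppp1r15a was -0.79 and did not pass. Atf4 (0.24, adjusted p = 0.196), Ddit3 (-0.24, adjusted p = 0.539) and Trib3 (-0.09, adjusted p = 0.899) were not called, and the signs of Ddit3 and Trib3 turned when single libraries were left out.

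Of 6 tested ectodysplasin pathway genes none was called, beside 3.57% of all genes. There were 4 log2 fold changes above 0, with a median of 0.19. Unadjusted p was under 0.05 in 2 of the 6, both higher, beside 24.8% of all genes. Edar, the receptor for the A1 form, had a count in 1 library alone and was not tested. The called genes of the p53 network lists passed the threshold in part of the 16 alternatives. Epha2 passed in 11, Ccne2 in 10, Sesn3 in 11, Ppp1r15a in 10 and Nupr1 in 13, and none of them in the fits on TPM. The p53 relative Trp63 was at 0 in all 4 libraries, and Trp73 did not pass the filter on low counts.

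**Figure D4:**
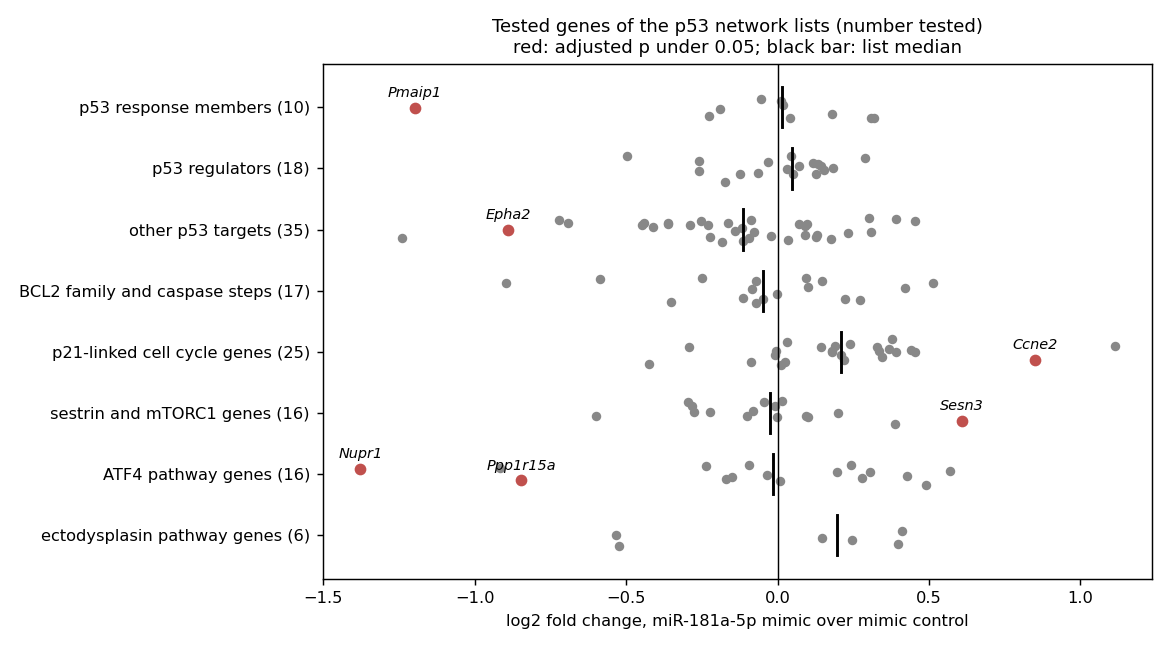
Log2 fold change (mimic over control) of every tested gene of the members and of 7 lists of the p53 network, with called genes in red and named and the list median as a black bar. The list medians run from -0.11 for the other p53 targets to 0.21 for the cell cycle genes, and each list holds at most 2 called genes.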

How the data were processed

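Gene expression was measured by RNA-seq of 4 libraries, 2 per group. The authors trimmed single reads with Trimmomatic, quantified them on GRCm38 with RSEM, and deposited expected counts (estimated counts per gene, not normalized) and TPM. The supplement describes ribosomal RNA depletion and the labels poly(A) enrichment. The annotation release is not given in the sources used here. In each table there were 3 columns that matched no sample, and they were not used.

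Rounded expected counts went into edgeR 4.0.16 (R 4.3.3): filterByExpr, TMM factors, glmQLFit without its legacy option and glmQLFTest, and p-values were adjusted over 17155 genes (Benjamini-Hochberg). A standard error is the log2 fold change divided by the square root of F. The steps were tested on simulated counts. An exact permutation test of 1 gene cannot go below p = 0.333 here, so no such p is given. DESeq2 1.42.0, limma 3.58.1 on log2(TPM + pseudocount) and other settings were tried, 16 alternatives in all. The legacy option was added after the data were seen.

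Coordinates, overlaps and 3' UTRs came from GENCODE release 21 for mouse (GRCm38), and symbols matched 55141 of 55487 genes. The members and lists were chosen with earlier results of these data known. All 10 members are named, then called genes of each list and well known genes named whatever their values.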

Additional observations from a re-analysis of the deposited data

How the results depend on the processing

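No paired analysis was run because the labels name no pairs of libraries across the groups. The count of called members was 1, and also 1 with a 2-fold minimum. Both became 0 in the fits on log2(TPM + 1), log2(TPM + 0.1) and unfiltered log2(TPM + 1). The members' median log2 fold change of 0.02 became -0.0346 with upper-quartile factors and 0.0484, 0.0523 and 0.0484 in the TPM fits. Over all genes the 612 calls became 1330 with DESeq2, 1788 with edgeR's exact test, 192 with no filter on low counts, and 75, 27 and 2 in the TPM fits (pseudocount 1, pseudocount 0.1, unfiltered). The 354 calls with a 2-fold minimum became 730, 158, 71, 27 and 2 with the exact test, no filter and those TPM fits. Leaving out 1 library gave 373 calls (without mimic replicate 3) to 2365 (without control replicate 2), and 285 to 891 with the 2-fold minimum (533 without mimic replicate 4). There the lone library was assumed to vary like the others.

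No member outside Pmaip1 passed the threshold in any alternative. Signs turned in members and listed genes with small log2 fold changes. Ccng1 became 0.00933, 0.00942 and 0.00933 in the TPM fits. With upper-quartile factors Cdkn1a became -0.0289, Trp53inp1 -0.0403 and Sesn2 -0.00991. Trp53inp1 became -0.000894 with at least 10 counts in every library, and -0.00397, -0.00456 and -0.00397 in the TPM fits. In those fits Bcl2l11 became -0.0600, -0.0671 and -0.0600 and Trib3 0.0325, 0.0430 and 0.0325. Leaving out 1 library at a time gave log2 fold change ranges of Ccng1 -0.120 to 0.0102, Cdkn1a -0.273 to 0.379, Bbc3 -0.424 to 0.0320, Trp53inp1 -0.0397 to 0.0708, Sesn2 -0.127 to 0.203, Gdf15 -0.0955 to 0.266, Btg2 -0.0197 to 0.226, Bcl2 -0.197 to 0.0333, Atm -0.0155 to 0.127, Cdkn1b -0.227 to 0.0629, Ddit3 -0.553 to 0.149 and Trib3 -0.609 to 0.680. The causes were not tested. With 2 libraries a group, precision is limited by the spread between replicates and, in genes with few counts such as Bbc3, also by depth.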
